A study of Mus musculus with 4 samples.

Results

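Endothelial cells close the vessel wall through cell-to-cell junctions and, in some vessels, through diaphragms that span small pores in the cell. The genes described here are 10 endothelial junction and barrier genes, 10 of the 31053 genes measured. The list was drawn up with earlier results of these libraries known, among them the levels of Cldn5 by diet. The genes were followed through single cells of mouse hearts, across the vessel types inside the heart, other cell types and the diet of the mother. The tested hearts came from offspring of dams that ate a diet high in resistant starch, a prebiotic fibre, during pregnancy and lactation (high_fibre). The comparison hearts came from offspring of dams on a diet low in resistant starch (control_diet). All offspring were weaned at 3 weeks onto the same standard chow and were killed at 6 weeks. Each group had 2 libraries of sorted live, metabolically active, nucleated heart cells. The labels give no strain, genotype or sex and do not say how many animals a library holds, so p-values measure the spread between libraries, which may be technical.

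Junctions between endothelial cells are built from adherens junctions, where VE-cadherin joins neighbouring cells, and tight junctions, where claudins and occludin form the seal. Junctional adhesion molecules and their relative Esam lie in the same contacts and also take part in leukocyte passage. Scaffold proteins such as ZO-1 tie these membrane proteins to the cytoskeleton. Claudin 5 is the claudin best known from endothelium and limits the passage of small molecules in brain vessels. Plvap is not a junction protein but builds the diaphragms of fenestrae, caveolae and transendothelial channels, and it marks vessels with a leakier wall.

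The members by role are the claudin Cldn5, the tight junction protein occludin (Ocln), VE-cadherin (Cdh5), the adhesion molecules Esam, F11r (JAM-A), Jam2 (JAM-B) and Jam3 (JAM-C), the scaffolds Tjp1 (ZO-1) and Cgnl1 (paracingulin), and Plvap. All are protein coding. On GRCm38 Cldn5 lies at chr16:18776847-18778262, Jam2 at chr16:84774123-84825928, Cdh5 at chr8:104101625-104144511 and F11r at chr1:171437535-171464603. Plvap lies at chr8:71497765-71511752 and Cgnl1 at chr9:71626509-71771602. Esam lies at chr9:37528078-37538319, Jam3 at chr9:27097384-27155421, Ocln at chr13:100496507-100552718 and Tjp1 at chr7:65296165-65527781.

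A cell was taken as endothelial when it held at least 4 UMIs, that is counted molecules, of Pecam1, Egfl7 and Tie1 together. This took 7164 of 22514 kept cells, 1643 and 2393 in the high_fibre libraries and 1847 and 1281 in the control_diet libraries. The values that chose the cells are therefore UMIs of these 3 genes and of the subset markers, and their levels are not results. Of the chosen cells, 96.9% fell in clusters whose leading markers were endothelial, endocardial or lymphatic. Pecam1, Egfl7 and Tie1 were also among the markers that named the endothelial clusters, so this share was partly set by the rule. Just inside the threshold, the 183 cells with 4 UMIs held 488 CPM of Cldn5 and 597 CPM of Cdh5. Just outside it, the 229 cells with 3 UMIs held 184 CPM of Cldn5 and 241 CPM of Cdh5. CPM here is the summed UMIs of a gene per 1000000 UMIs of the same cells and library.

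Subsets were taken from marker detection. A cell was arterial with at least 1 UMI of Sema3g or Hey1, endocardial with Npr3, lymphatic with Prox1 or Mmrn1, and capillary with Car4 or Aqp1, in each case with no UMI of the other subsets' markers. This gave 615 arterial, 106 endocardial, 40 lymphatic and 4570 capillary cells, while 1553 cells had markers of several subsets and 280 had none. The gap junction genes Gja4 and Gja5, known from arteries, were not used by the rule. Gja5 averaged 81.4 CPM in arterial and 0.168 CPM in capillary cells. Gja4 averaged 208 CPM in arterial, 176 CPM in endocardial, 205 CPM in lymphatic and 2.42 CPM in capillary cells, so it did not single out the arterial set. Summed pericyte markers ran from 359 to 1249 CPM over the arterial sets of the 4 libraries and from 122 to 158 CPM over the capillary sets, and smooth muscle markers from 77.8 to 268 CPM and from 3.96 to 60.5 CPM. The part of this mural RNA in the arterial results was not tested.

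The libraries held 56582577 and 69600492 UMIs for high_fibre and 59317334 and 27577599 for control_diet. Some barcodes occurred in more than 1 library, 463 to 747 for each pair, and many were low copies, with under 10% of the UMIs of the same barcode elsewhere. Among endothelial cells these copies numbered 11 and 12 in high_fibre and 4 and 0 in control_diet. Cells carrying a Y-linked UMI but no Xist UMI were 65.0% and 41.6% of the sexed endothelial cells of high_fibre, against 18.1% and 45.0% in control_diet. Inside the endothelial set, summed macrophage markers ran from 118 to 229 CPM in high_fibre and from 29.2 to 98.8 CPM in control_diet, with 6 of 6 markers higher in both high_fibre libraries. Erythroid markers ran from 1768 to 5175 CPM in high_fibre and from 804 to 1058 CPM in control_diet, and fibroblast markers from 716 to 756 CPM and from 837 to 850.4 CPM.

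Endocardial cells, which line the chambers, carried a different set of barrier genes from capillary cells. Plvap and Cgnl1 were high, Cldn5 was nearly missing, and VE-cadherin and the adhesion molecules were present at a lower level. Of the 10 members, 3 were called higher and 7 lower with edgeR, where 12.6% and 16.4% of 11200 tested genes were called higher and lower (29.1% in all). The median log2 fold of the members was −1.37, and that of all genes −0.09. Here and below a call is an adjusted p under 0.05, and the library was a block in the fit.

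Plvap, the diaphragm protein, stood at 1025 and 969 CPM in endocardial cells of the high_fibre libraries and at 1059 and 1174 CPM in those of the control_diet libraries. In capillary cells of the same libraries it stood at 7.75 and 10.4 CPM and at 21.0 and 10.7 CPM. Every endocardial value lay far above every capillary value, with a log2 fold of 6.33 (SE 0.15). Its size turned on the cell rule, at 3.40 with cells of several subsets kept and 9.37 with clusters in place of marker detection, an alternative chosen after the data were seen. Plvap was among the markers that named the endocardial-like cluster, so the last value is partly set by the choice of cells. Cgnl1, the scaffold that links tight junctions to the cytoskeleton, stood at 803 and 842 CPM and at 688 and 1106 CPM in endocardial cells of the same libraries. In capillary cells it stood at 36.7 and 45.0 CPM and at 49.2 and 42.9 CPM. The groups did not overlap, and the log2 fold was 4.17 (SE 0.13), or 2.77 with cells of several subsets kept.

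Cldn5 showed the opposite pattern. Only 2 Cldn5 UMIs were counted in endocardial cells among 903720 UMIs, in high_fibre 1 and control_diet 2, against 24141 among 26116917 in capillary cells. The capillary level was 418-fold that of endocardial cells, with an exact 95% interval from counting of 116 to 3449. That interval leaves out the cell rule: the fitted log2 fold was −2.66 with cells of several subsets kept and −5.49 with clusters. The endocardial-like cluster had 440 endothelial cells, grouped by the variable genes and not by Npr3 alone. It gave 23.3 ± 11.6 CPM of Cldn5, 785 ± 69.8 CPM of Plvap and 882 ± 69.4 CPM of Cgnl1 (SD, n = 4 libraries). Npr3 and Plvap were among the markers that named it.

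Cldn5 and Cgnl1 lay on opposite sides of this pattern, and a promoter sequence was at hand for both. The 250 bases before their RefSeq starts (GRCm38.p6) are shown for that reason, 5′ to 3′, with CCAAT or its reverse ATTGG in capitals. The Cldn5 window is chr16:18776597-18776846 on the plus strand and the Cgnl1 window chr9:71771603-71771852 on the minus strand.
Cldn5: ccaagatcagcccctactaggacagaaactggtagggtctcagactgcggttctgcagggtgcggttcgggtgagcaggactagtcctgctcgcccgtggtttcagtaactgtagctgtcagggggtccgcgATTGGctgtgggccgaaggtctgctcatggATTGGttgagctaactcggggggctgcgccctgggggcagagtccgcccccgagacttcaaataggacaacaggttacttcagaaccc
Cgnl1: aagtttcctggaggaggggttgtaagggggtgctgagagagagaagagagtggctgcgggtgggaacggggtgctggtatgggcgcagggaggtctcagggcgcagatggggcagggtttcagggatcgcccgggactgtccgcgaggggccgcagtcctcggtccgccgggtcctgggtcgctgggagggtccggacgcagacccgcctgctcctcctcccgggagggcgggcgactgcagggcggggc
The Cldn5 window held 2 matches and the Cgnl1 window 0, while 33.8% of 32851 windows of this length held at least 1. The F11r window held 3, and that of Tjp1, like F11r lower in endocardial cells, held 0. The 2 windows of Ocln, a member also higher in endocardial cells but on few UMIs, held 0 and 1. The ETS motif AGGAAG or its reverse CTTCCT (29.5% of windows) and TATAAA or its reverse TTTATA (12.4%) matched in none of the windows of the 5 members with a sequence, which are F11r, Tjp1, Cgnl1, Ocln and Cldn5. Both strands were searched, and a match of one motif cannot lie within a match of another.

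Occludin was rare in all heart endothelium. Ocln had 20 UMIs in endocardial cells, at 16.3 and 15.4 CPM in high_fibre and 37.1 and 12.3 CPM in control_diet, against 6 UMIs in all capillary cells. The ratio of these counts was 96.3, with an exact 95% interval from counting of 37.3 to 293. The fitted log2 fold was 6.26, or 3.42 with cells of several subsets kept. Of 108 Ocln UMIs in all endothelial cells, 92 lay in the endocardial-like cluster.

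The remaining members were lower in endocardial than in capillary cells in each of the 4 libraries. Cdh5, the adherens junction cadherin, averaged 378 ± 37.8 CPM in endocardial and 1188 ± 63.0 CPM in capillary cells (SD, n = 4), a log2 fold of −1.76 (SE 0.13). Jam3 fell most of the adhesion molecules, to 12.8 ± 12.5 CPM in endocardial cells, against 143 ± 3.20 CPM in capillary cells. That value rests on 10 endocardial UMIs, and its log2 fold of −3.79 was −2.36 with cells of several subsets kept. Esam (−1.47), Tjp1 (−1.38), Jam2 (−1.37) and F11r (−1.02) fell by similar log2 amounts. Endocardial cells had a median of 8571 UMIs and capillary cells 5011.

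**Figure D1:**
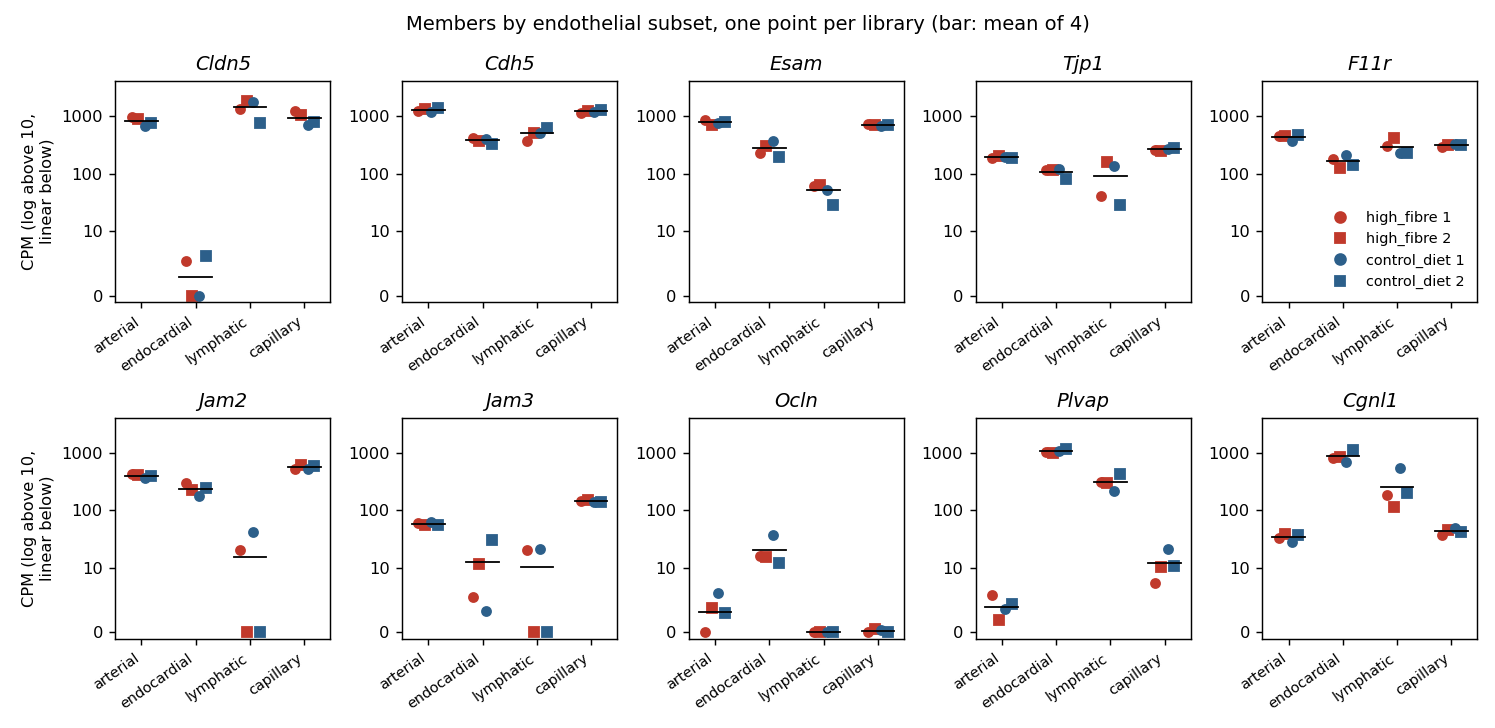
Level of each member in CPM (log axis above 10, linear below) in arterial, endocardial, lymphatic and capillary cells. Points are the 4 libraries and bars their mean. Plvap and Cgnl1 are high in endocardial cells, where Cldn5 has 2 UMIs, and Esam, Jam2 and Jam3 are low in lymphatic cells.

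Lymphatic endothelial cells, which drain the tissue, had little Esam, Jam2 and Jam3 and more Plvap and Cgnl1 than capillary cells. Cldn5 and F11r were not called. Of the 9 members that passed the count filter, 2 were called higher and 5 lower than in capillary cells (edgeR), where 5.3% and 9.11% of 10720 genes were called higher and lower (14.4% in all). The members' median log2 fold was −1.67, and that of all genes −0.27. These 40 cells hold 291744 UMIs, and control_diet 2 had 4 of them.

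Cldn5 stood at 1335 and 1797 CPM in lymphatic cells of high_fibre and at 1708 and 757 CPM in those of control_diet, against 1219 and 1047 CPM and 689 and 779 CPM in capillary cells. Lymphatic cells were higher in 3 of 4 libraries, and the ranges overlapped. The log2 fold was 0.18 (SE 0.17, edgeR adjusted p = 0.600). The call turned on the processing: with library totals in place of TMM factors, an alternative chosen after the data were seen, it was 0.60 (edgeR adjusted p = 0.00537). With the lymphatic-like cluster, also an added alternative, it was 0.58 (edgeR adjusted p = 0.000459), and without control_diet 1 it was −0.10. F11r had no call either, at a log2 fold of −0.48 (SE 0.24, edgeR adjusted p = 0.211). Its pooled level was 308 CPM in lymphatic and 309 CPM in capillary cells, and lymphatic cells were higher in 2 of 4 libraries. Over 13 alternatives the fold of F11r ran from −0.72 to −0.05, with no call.

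Esam, the endothelial adhesion molecule of the tight junction, stood at 60.7 and 62.3 CPM in lymphatic cells of high_fibre and at 53.1 and 28.1 CPM in those of control_diet. Capillary cells held 734 and 705 CPM and 678 and 695 CPM, so that all 4 lymphatic values lay far below. The log2 fold was −4.09, or −1.83 with cells of several subsets kept. Jam2 had 5 UMIs and Jam3 had 3 in all lymphatic cells. The capillary level was 32.5-fold the lymphatic one for Jam2 (exact 95% interval from counting, 13.9 to 100.2) and 14.0-fold for Jam3 (4.78 to 67.8). Cdh5 (−1.68) and Tjp1 (−1.67) fell by similar log2 amounts.

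Plvap stood at 303 and 302 CPM in lymphatic cells of high_fibre and at 212 and 421 CPM in those of control_diet, above every capillary value given before, with a log2 fold of 4.21 (SE 0.33), or 2.08 with cells of several subsets kept and 7.25 with clusters. Cgnl1 stood at 182 and 116 CPM and at 530.5 and 196 CPM, with a log2 fold of 2.07 (SE 0.30). No Ocln UMI was counted, which allows up to 10.3 CPM at 3 counts of the total. TMM scaling moved the median of all genes by 0.40 (log2) between lymphatic and capillary cells, and 36.8% of calls were higher with it against 57.8% with library totals. The called members kept their direction under both.

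Arterial cells differed less from capillary cells. JAM-A was higher, while JAM-C, JAM-B, ZO-1 and, by a small amount, claudin 5 were lower. VE-cadherin and Esam were not called. Of the 10 members, 2 were called higher and 6 lower (edgeR), where 11.7% and 11.4% of 10917 genes were called higher and lower (23.1% in all). The members' median log2 fold was −0.31.

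F11r, which encodes JAM-A, stood at 446 and 451 CPM in arterial cells of high_fibre and at 371 and 469 CPM in those of control_diet. In capillary cells it stood at 286 and 308 CPM and at 321 and 316 CPM. Arterial cells were higher in 4 of 4 libraries, with a log2 fold of 0.44 (SE 0.07, edgeR adjusted p = 1.27e-06). Jam3 stood at 60.4 and 56.2 CPM and at 62.4 and 55.9 CPM in arterial cells, against 143 and 148 CPM and 141 and 142 CPM in capillary cells. All arterial values lay below all capillary values, and the log2 fold was −1.35 (SE 0.10, edgeR adjusted p = 1.11e-15). Jam2 fell by 0.53 and Tjp1 by 0.51 on the log2 scale.

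Cldn5 was lower in arterial cells in 4 of 4 libraries, by 0.23 on the log2 scale (SE 0.06, edgeR adjusted p = 0.00191). Its levels were 972 and 882 CPM in high_fibre and 663 and 745 CPM in control_diet arterial cells. Over 13 alternatives the log2 fold ran from −0.64 to −0.12, and 2 of them lost the call. Of these, the fit without high_fibre 1 gave −0.18 (edgeR adjusted p = 0.0643). The lower Cgnl1 in arterial cells (−0.39, edgeR adjusted p = 0.0485) lost its call in 11 of 13 alternatives, among them DESeq2 (adjusted p = 0.279) and each library left out in turn, turned sign in 1 and held in 1. Ocln (11 UMIs) and Plvap (13 UMIs) were called higher and lower in arterial cells, but with cells of several subsets kept their log2 folds were 0.78 and −0.15, with edgeR adjusted p = 0.118 and 0.872. Cdh5 averaged 1263 ± 90.7 CPM in arterial and 1188 ± 63.0 CPM in capillary cells (SD, n = 4), a log2 fold of 0.03 (SE 0.05, edgeR adjusted p = 0.775). By CPM it was higher in arterial cells in 4 of 4 libraries. Of 13 alternatives 1 brought a call for Cdh5 and 3 turned its sign.

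Leaving out every cell with a shared barcode changed no call among the members in the endocardial and lymphatic contrasts. In the arterial contrast it ended that of Cgnl1 (−0.35, edgeR adjusted p = 0.0856).

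**Figure D2:**
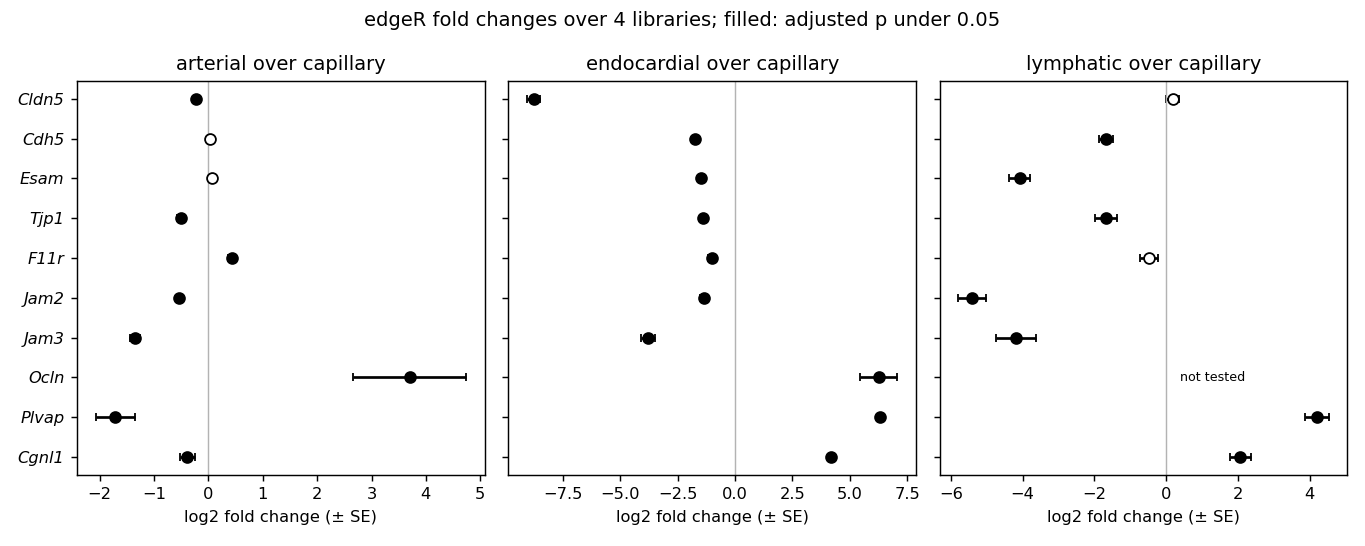
edgeR log2 fold change (x axis, bars are SE) of each member in arterial, endocardial and lymphatic cells over capillary cells of the same 4 libraries. Filled points have an adjusted p under 0.05. Plvap and Cgnl1 lie right of 0 in endocardial (6.33 and 4.17) and lymphatic cells (4.21 and 2.07).

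Endothelial clusters, which were formed from all variable genes and are given as a description, spread the members further. Cldn5 averaged 1373 ± 305 CPM (SD, n = 4) in a cluster of 865 cells led by Apln and Kit and 1068 ± 347 CPM in the largest cluster, led by Timp4, Aqp1 and Car4. It averaged 704 ± 166 CPM in the cluster led by Sema3g. In a cluster of 694 cells led by Lhx6, Samd5 and Vegfc it averaged 196 ± 55.1 CPM. That cluster also had 49.9 ± 8.18 CPM of Plvap, against at most 2.05 CPM in the other 4 endothelial clusters, and 54.8 ± 3.58 CPM of Jam3. Its Cdh5 level was 872 ± 25.0 CPM, so VE-cadherin varied less among these clusters than claudin 5.

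Outside endothelial cells Cldn5, Cdh5 and Ocln were near the level of free RNA, while the other members were well above it in at least one cell type. These cell types are clusters named from marker lists, pericyte-like, fibroblast-like and so on, and go by the short names here. As a measure of free or carried-over endothelial RNA, the median level of Kdr, Emcn, Fabp4, Egfl7 and Tie1 was 0.322% of the endothelial level in fibroblasts, 0.376% in macrophages, 0.994% in smooth muscle cells and 1.39% in pericytes. Egfl7 and Tie1 are also genes of the endothelial rule. The choice of cells lowered their share here, so the measure may run low. Cldn5 averaged 2.10 CPM in macrophages and 1.94 CPM in fibroblasts, and Cdh5 2.59 and 1.84 CPM, all at or near that level against endothelial means of 838 and 1117 CPM.

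Pericytes, the mural cells of capillaries, held nearly as much Esam as endothelial cells and more Jam3. Esam stood at 545 and 610.1 CPM in pericytes of high_fibre and at 612 and 626 CPM in those of control_diet, which pooled to 90.8% of the endothelial level. Jam3 stood at 187 and 233 CPM and at 233 and 235 CPM, which pooled to 191% of the endothelial level. All 4 pericyte values of Jam3 lay above all 4 endothelial values (112 to 119 CPM). Smooth muscle cells held 360 ± 51.2 CPM of Esam and 171 ± 26.2 CPM of Jam3 (SD, n = 4). Both mural types held F11r at 38.1 ± 5.67 and 39.1 ± 10.6 CPM, which pooled to 12.5% and 11.6% of the endothelial level. Some of the 5 endothelial markers reached 7.73% and 7.21% there, and the part of carried-over RNA in this F11r was not tested. Pericytes also held Tjp1 at 68.1 ± 3.92 CPM and Cgnl1 at 53.1 ± 5.26 CPM.

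Fibroblasts held Jam3 at 63.7 ± 1.26 CPM, Jam2 at 55.1 ± 3.49 CPM and Tjp1 at 48.0 ± 4.91 CPM. They also held 15.7 ± 3.59 CPM of Plvap, pooled to 16.8% of the endothelial level, and by library it stood at 11.8 and 14.3 CPM in high_fibre and at 16.6 and 20.3 CPM in control_diet. Across fibroblast clusters Plvap averaged 5.87 CPM in the cluster led by Pi16 and Cd248 and 10.6 to 19.2 CPM in the others. Schwann-like cells, the glia of nerves, held Jam3 at 118 ± 40.0 CPM and Tjp1 at 69.9 ± 17.8 CPM. Macrophages held F11r at 37.4 ± 7.48 CPM and monocytes at 20.9 ± 7.92 CPM, while the other members averaged at most 3.06 CPM in both. An unnamed cluster of 1386 cells in which macrophage markers led, not counted among the macrophages, held 5.42 CPM of F11r. No Ocln UMI was counted in any other named cell type, which allows up to 0.0375 CPM in fibroblasts and 0.177 CPM in macrophages at 3 counts of the total.

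**Figure D3:**
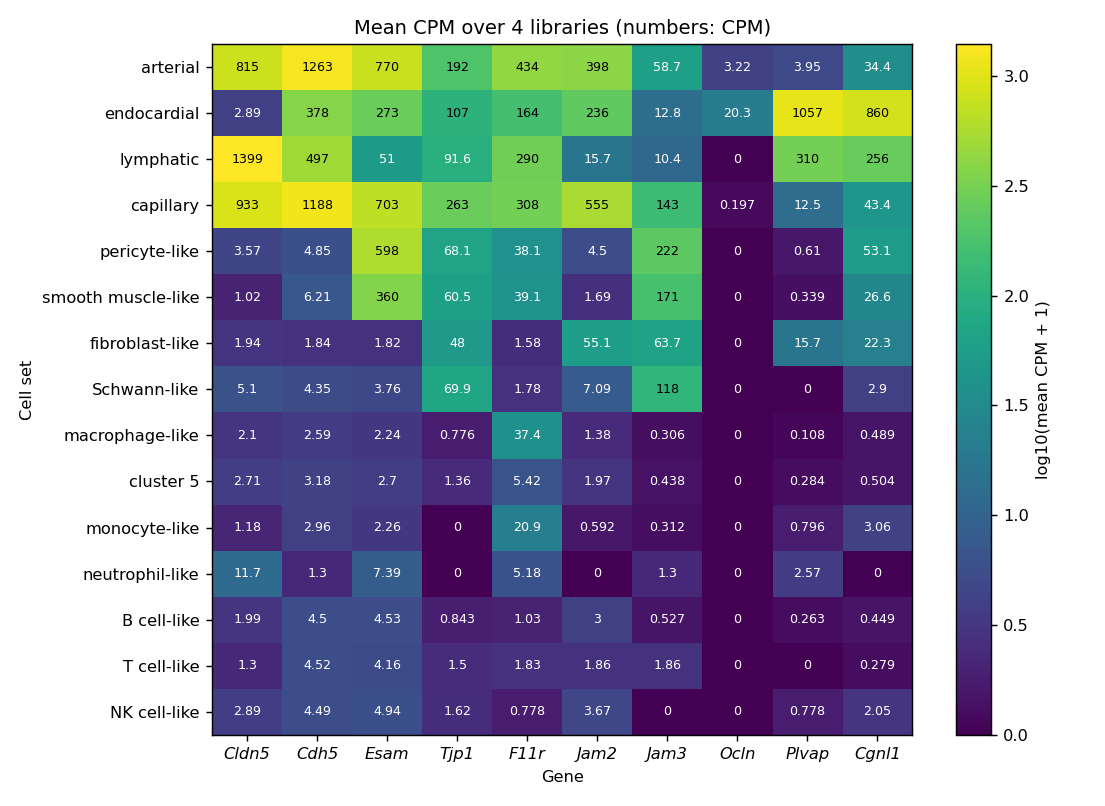
Mean CPM over 4 libraries of each member (columns) in endothelial subsets and other cell types (rows), with the value printed in each cell and color on a log10 scale. Esam and Jam3 reach 598 and 222 CPM in pericytes, and F11r reaches 37.4 CPM in macrophages.

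Maternal diet was compared over the 2 libraries of each group. Claudin 5 was higher in endothelial cells of high_fibre offspring in both libraries, while VE-cadherin, the adhesion molecules and ZO-1 lay within 0.08 (log2) of no difference. Plvap, Cgnl1 and Ocln were lower in both high_fibre libraries. In the fit of all genes none of the 10 members was called (edgeR), where 0.0161% of 12456 genes were called. At an unadjusted p under 0.05 there were 3 members, against 542 of all 12456 genes. DESeq2 called 1 member, Cldn5, and 11 genes in all. Counting members whose groups did not overlap, 2 lay above and 5 below in high_fibre, where 15% and 16.8% of genes lay so.

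Cldn5 stood at 1082 and 941 CPM in endothelial cells of high_fibre, against 644 and 685 CPM in control_diet. Both high_fibre values lay above both control_diet values. The log2 fold was 0.62 (SE 0.11, interval of 2 SE 0.40 to 0.85), rank 10 of 12456 genes by p, with an edgeR adjusted p of 0.350. Cldn5 had stood out in earlier results of these libraries, so this value describes them and is no independent support. It was past the threshold under DESeq2 (adjusted p = 0.00141), with no filter on low counts (edgeR adjusted p = 1.1e-05) and without high_fibre 2 (0.76, edgeR adjusted p = 0.0375), where the lone high_fibre library is assumed to vary like the control_diet ones. It was not past it without any of the other 3 libraries, with log2 folds of 0.48 to 0.65 and edgeR adjusted p of 0.490 to 0.765.

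Thinning the cells to 2000 UMIs, chosen after the data were seen, gave a log2 fold of 0.69 (edgeR adjusted p = 0.0100). There 63.5% and 60.6% of endothelial cells of high_fibre had a Cldn5 UMI, against 52.5% and 53.8% in control_diet, with 3.62 and 3.42 UMIs per positive cell in high_fibre and 2.50 and 2.63 in control_diet. In the unthinned cells the shares were 71.3% and 72.0% in high_fibre and 68.9% and 70.4% in control_diet, at median depths of 4733 and 4700 UMIs and of 5747 and 6348 UMIs. Thinning left out 112 and 146 shallower cells of high_fibre and 59 and 36 of control_diet. In macrophages, which should lack the gene, 0.402% to 0.980% of thinned cells had a Cldn5 UMI.

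The same order was seen in each vessel set with enough cells. These sets, and the clusters and sex-split cells below, are parts of the same endothelial cells and libraries, so they are no separate support. In arterial cells Cldn5 stood at 972 and 882 CPM in high_fibre, against 663 and 745 CPM in control_diet, a log2 fold of 0.40 (SE 0.13, edgeR adjusted p = 0.781). In capillary cells it stood at 1219 and 1047 CPM in high_fibre, against 689 and 779 CPM in control_diet, a log2 fold of 0.64 (SE 0.11, edgeR adjusted p = 0.224). The groups did not overlap in either. In the arterial sets summed pericyte markers ran from 359 to 822 CPM in high_fibre and from 845 to 1249 CPM in control_diet, with 4 of 5 markers lower in both high_fibre libraries. Smooth muscle markers ran from 77.8 to 163 CPM in high_fibre and from 216 to 268 CPM in control_diet, with 3 of 4 lower and Cnn1 at 0 in all 4 libraries. The part of this in the arterial value was not tested. The difference between the arterial and the capillary diet fold was −0.22 (SE 0.10, edgeR adjusted p = 0.913). No member was called in arterial cells (8 tested, 1 at an unadjusted p under 0.05, 0 by DESeq2), in capillary cells (9 tested, 1 unadjusted, 1 by DESeq2) or for the difference of folds (10 tested, 1 unadjusted). Called genes made up 0.0128%, 0.0264% and 0.0366% of those tested in these fits. Past an unadjusted p under 0.05 were 434 of 7790, 426 of 11369 and 576 of 10917 genes. DESeq2 called 0 genes in arterial and 9 in capillary cells.

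Cldn5 was also higher in both high_fibre libraries in the Apln and Kit cluster (1614 and 1655 CPM, against 1155 and 1067 CPM in control_diet). The cluster of low Cldn5 showed 271 and 201 CPM in high_fibre and 170.2 and 143 CPM in control_diet.

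Cldn5 was also compared between diets in cells split by sex-linked UMIs. In endothelial cells carrying a Y-linked but no Xist UMI, Cldn5 stood at 1201 and 981 CPM in high_fibre, against 628 and 684 CPM in control_diet, and the groups were apart (log2 fold 0.77, edgeR adjusted p = 0.134). In cells with Xist and no Y-linked UMI it stood at 567 and 873 CPM in high_fibre, against 637 and 636 CPM in control_diet, and the groups overlapped (0.17, edgeR adjusted p = 1.00). The low Xist value came from high_fibre 1, where Y-linked cells held 2.12-fold the Cldn5 of Xist cells. That ratio was 1.12 in high_fibre 2 and 0.986 and 1.08 in the control_diet libraries. The difference between the 2 diet folds was not tested, and the sexes were unevenly spread over libraries as given before. The part of sex, of the macrophage and erythroid RNA given before and of depth in the Cldn5 difference was not tested. Fewer transcripts per cell and fewer cells of 1 kind within the summed set cannot be told apart in these sums.

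**Figure D4:**
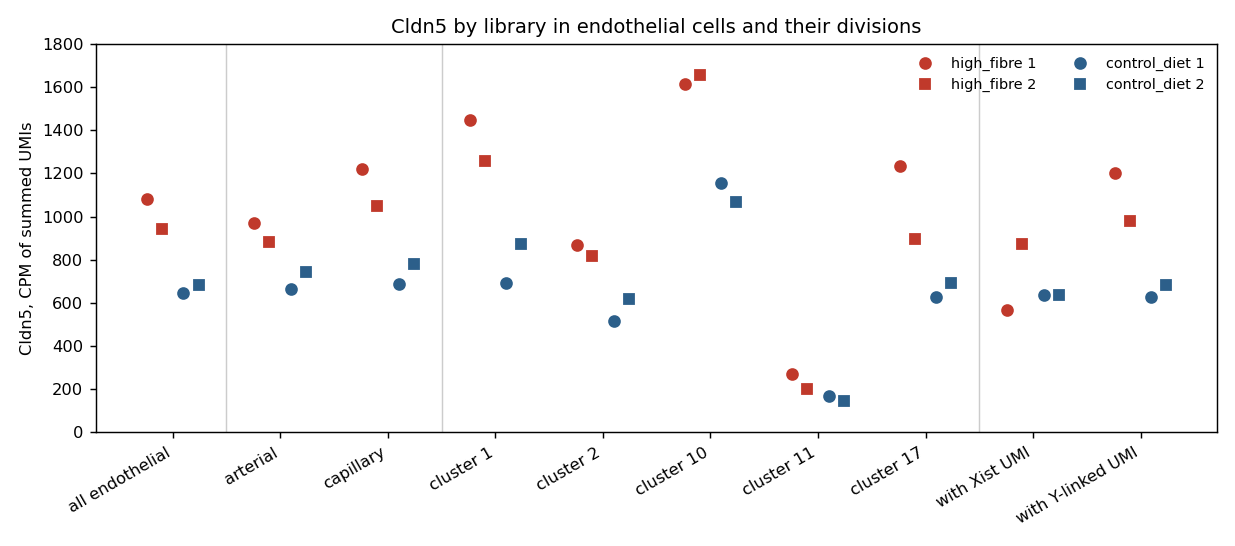
Cldn5 in CPM by library in all endothelial cells, in arterial and capillary cells, in endothelial clusters (1 led by Timp4, 2 by Sema3g, 10 by Apln, 11 by Lhx6, 17 by interferon genes) and in cells split by sex-linked UMIs. Both high_fibre libraries lie above both control_diet libraries in each set except cells with an Xist UMI (567 and 873, against 637 and 636 CPM).

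Plvap stood at 65.1 and 88.6 CPM in endothelial cells of high_fibre, against 105 and 95.9 CPM in control_diet. The groups did not overlap, and the log2 fold was −0.37 (SE 0.13, edgeR adjusted p = 0.942). Over 17 alternatives the fold ran from −0.83 to 0.10, and 1 of them brought a call. In cells with Xist and no Y-linked UMI it turned to 0.10. In cells with a Y-linked but no Xist UMI Plvap stood at 71.3 and 128 CPM in high_fibre, against 242 and 122 CPM in control_diet. Cgnl1 stood at 107 and 118 CPM in high_fibre, against 155 and 127 CPM in control_diet, a log2 fold of −0.32 (SE 0.11, edgeR adjusted p = 0.951). In cells with a Y-linked but no Xist UMI it stood at 113 and 135 CPM in high_fibre, against 193 and 170 CPM in control_diet. With Xist and no Y-linked UMI it stood at 141 and 120 CPM in high_fibre, against 145 and 109 CPM in control_diet. Of both genes most UMIs lay in the endocardial-like cluster, 3461 for Plvap and 3865 for Cgnl1, against 3916 and 5575 in all endothelial cells. The endocardial-like cluster held 4.87% and 5.98% of the endothelial cells in high_fibre, against 7.47% and 6.17% in control_diet, and the groups did not overlap. The part of these shares in the lower Plvap and Cgnl1 was not tested. Endocardial cells by the Npr3 rule were 1.22% and 1.55% of the endothelial cells in high_fibre and 1.79% and 1.25% in control_diet. Within endocardial cells Plvap stood at 1025 and 969 CPM in high_fibre, against 1059 and 1174 CPM in control_diet, with 16 to 37 cells per library. That difference was not tested, because control_diet 2 had 16 such cells, under the minimum of 20.

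The members whose diet folds lay near 0 were tightly bounded by the libraries. Cdh5 stood at 1093 and 1113 CPM in high_fibre, against 1065 and 1195 CPM in control_diet, with a log2 fold of −0.02 and an interval of 2 SE from −0.22 to 0.17. F11r stood at 303 and 314 CPM in high_fibre, against 314 and 317 CPM in control_diet (interval −0.20 to 0.16). Jam3 stood at 116 and 119 CPM, against 112 and 114 CPM in control_diet (interval −0.11 to 0.24). Esam, Tjp1 and Jam2 had intervals of −0.13 to 0.29, −0.24 to 0.13 and −0.16 to 0.25. Ocln, with 1.43 and 2.18 CPM in high_fibre and 3.43 and 2.66 CPM in control_diet, had too few UMIs for a bound of use (−1.48 to 0.02).

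**Figure D5:**
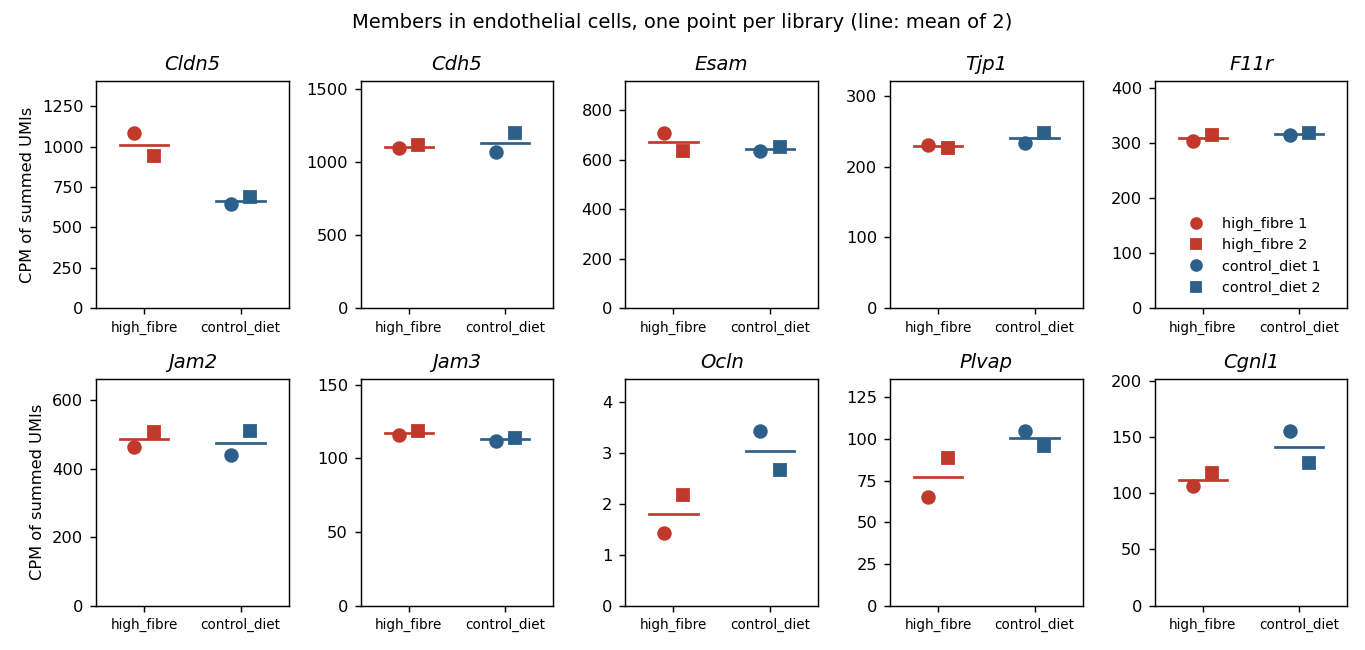
Level in CPM of each member in endothelial cells, with 1 point per library and a line at the mean of each group of 2 libraries. Cldn5 is at 1082 and 941 CPM in high_fibre and 644 and 685 CPM in control_diet, while Cdh5, Esam and Jam2 overlap.

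In other cell types no member was called either. In fibroblasts 0.0226% of 13274 genes were called, 853 at an unadjusted p under 0.05 and 40 by DESeq2. Of 9 members tested there, 2 passed the unadjusted p and 0 passed under DESeq2. Of these Cldn5 was at the free RNA level, and Plvap had a log2 fold of −0.46 (SE 0.14, edgeR adjusted p = 0.525) from the fibroblast values given before. In pericytes 0.14% of 9280 genes were called, 546 at an unadjusted p under 0.05 and 0 by DESeq2. Esam (−0.08, SE 0.12) and Jam3 (−0.13, SE 0.14) were among 5 members tested, 0 of them past an unadjusted p under 0.05 or under DESeq2. In macrophages 0% of 10497 genes were called, 374 at an unadjusted p under 0.05 and 0 by DESeq2, and F11r had a log2 fold of 0.08 (SE 0.21).

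Beyond the members, 7 lists of 96 junction and barrier genes were followed. With edgeR none of their genes was called by diet in any of these fits. In endothelial cells 82 of them were tested, 3 passed an unadjusted p under 0.05 and 0 passed under DESeq2. Of all 12456 genes tested there, 542 passed the unadjusted p and 11 passed under DESeq2. Median log2 folds by list ran from −0.09 for caveolae genes, 1 of 8 above 0, to 0.18 for leukocyte contact genes, 6 of 8 above 0.

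Between vessel types many of the list genes were called with edgeR. The counts below stand against all genes tested, of which 12.6% were called higher and 16.4% lower in endocardial cells, 5.3% and 9.11% in lymphatic cells and 11.7% and 11.4% in arterial cells, each against capillary cells. In lymphatic cells library totals turned the balance of calls, as given before. Up to 6 called genes of each list are named, by absolute log2 fold.

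Of the 8 caveolae genes, which build the membrane pits in which Plvap also sits, 1 was called higher and 5 lower in endocardial cells. Cav1, the coat protein caveolin 1, averaged 456 CPM in endocardial and 1946 CPM in capillary cells (log2 fold −2.21). Cav2, Cavin1, Ehd2 and Cavin2 fell by 1.78, 1.67, 1.33 and 1.08 on the log2 scale, and Ehd4 rose by 1.76. In lymphatic cells 1 of 8 was higher, Pacsin2 (0.99), and 5 were lower, Cav1 (−2.02), Cav2 (−1.65), Cavin1 (−1.62), Ehd2 (−1.28) and Cavin2 (−1.26). In arterial cells 3 of 8 were higher, Ehd4 (1.74), Cavin3 (0.28) and Ehd2 (0.19), and 3 were lower, Cavin2 (−0.80), Cavin1 (−0.49) and Cav1 (−0.14).

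Tight junction genes moved both ways, with 6 of 14 higher and 4 lower in endocardial cells and 4 of 15 higher and 3 lower in lymphatic cells. Lsr, a protein of tricellular contacts, averaged 55.8 CPM in endocardial, 122 CPM in lymphatic, 4.24 CPM in arterial and 0.734 CPM in capillary cells. The polarity gene Pard3 had log2 folds of 2.64 and 2.53 in endocardial and lymphatic cells, and Afdn, the scaffold afadin, −2.66 and −2.13. Pard6g, another polarity gene, averaged 21.0 CPM in endocardial, 372 CPM in lymphatic, 0.596 CPM in arterial and 6.03 CPM in capillary cells. The claudin Cldn11 averaged 72.6 CPM in lymphatic and 0.218 CPM in capillary cells. Cldn15 fell by 1.82 in endocardial cells. It had no UMI in lymphatic cells, against 14.2 CPM in capillary cells. Amot rose by 1.52 in endocardial cells. In arterial cells 2 of 14 were higher, Lsr (2.34) and Amotl2 (0.39), and 2 lower, Pard6g (−3.34) and Afdn (−0.31).

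Of the adherens junction genes 1 of 13 was higher and 6 were lower in endocardial cells, and 1 of 11 was higher and 5 were lower in lymphatic cells. Ptprb, the phosphatase VE-PTP that partners VE-cadherin, averaged 265 CPM in endocardial, 305 CPM in lymphatic, 1475 CPM in arterial and 809 CPM in capillary cells. Jup, plakoglobin, fell by 2.15 in endocardial and by 1.27 in lymphatic cells, Vcl by 0.87 and 1.13, and Ctnnb1, beta-catenin, by 0.66 and 0.93. Cdh13 fell by 1.31 in endocardial and Pkp4 by 0.99 in lymphatic cells. The higher ones were Nectin1 in endocardial (2.58) and Nectin2 in lymphatic cells (1.97). In arterial cells 3 of 12 were higher, Arvcf (2.76, at 3.02 CPM), Ptprj (1.58) and Ptprb (0.81), and 3 lower, Nectin2 (−1.98), Vcl (−0.55) and Cdh13 (−0.30).

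Of the regulators of junctions, 4 of 23 were higher and 14 lower in endocardial cells, 1 and 11 of 23 in lymphatic cells and 6 and 6 of 21 in arterial cells. Kdr, the main VEGF receptor, fell by 3.54 in endocardial and by 2.05 in lymphatic cells. Sox17, a transcription factor of arteries, averaged 427 CPM in arterial, 7.01 CPM in endocardial, 5.30 CPM in lymphatic and 104 CPM in capillary cells. Heg1, a receptor that acts through the CCM proteins, rose by 1.98 in endocardial and by 1.09 in arterial cells. In endocardial cells Radil (3.01) and Src (2.86) were also higher and Sox18 (−2.16) lower. In lymphatic cells Radil (4.36) was the higher one, and Fli1 (−1.72) and Rap1a (−1.26) were lower, as was Rapgef3 at 4.88 CPM, against 113 CPM in capillary cells. In arterial cells Sox18 (0.94) and S1pr1 (0.85), a receptor for sphingosine 1-phosphate, were higher and Yes1 (−0.81) and Rhob (−0.79) lower.

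Of the Wnt list, 1 of 5 was higher in endocardial cells, Lrp5 (1.23), and 2 were lower, Tspan12 (−2.20) and Fzd4 (−1.07). In lymphatic cells 0 of 5 were higher and 2 lower, Sox7 (−1.56) and Fzd4, at 54.3 CPM in lymphatic and 172 CPM in capillary cells. In arterial cells 1 of 5 was higher, Fzd4 (0.27), and 2 lower, Sox7 (−1.05) and Tspan12 (−0.26).

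Of the leukocyte contact genes, 2 of 7 were higher in endocardial cells, Vcam1 (3.21) and Icam1 (1.56), and 1 was lower, Icam2 (−0.38). In lymphatic cells 0 of 6 were higher and 3 lower, Vcam1 (−2.48), Icam2 (−1.09) and Mcam, at 7.71 CPM in lymphatic and 80.5 CPM in capillary cells. In arterial cells 2 of 6 were higher, Mcam (1.32) and Icam2 (0.43), and 2 lower, Vcam1 (−2.23) and Icam1 (−0.38). Mcam is also known from mural cells, whose markers were higher in the arterial than in the capillary sets by the values given before.

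Of gap junction and desmosome genes, 3 of 5 were higher in endocardial cells, the desmosomal cadherin Dsg2 at 53.3 CPM, against 0.165 CPM in capillary cells, Pkp2 at 33.2 CPM, against 0.212 CPM, and Gja4. The 2 lower ones were Gja1 at 2.65 CPM, against 108 CPM, and Gjc1 at 9.72 CPM, against 61.5 CPM. In lymphatic cells 1 of 3 was higher, Gja4, and 0 were lower. In arterial cells 2 of 4 were higher, Gja5 and Gja4, and 1 lower, Gjc1 (−0.54). The printed folds of called list genes were all larger than the shift that TMM scaling made in their contrast (0.06 arterial, 0.11 endocardial and 0.40 lymphatic, log2).

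The genes whose levels followed Cldn5 most closely across 15 cell classes, by Pearson r of the library mean of log2(CPM + 5) among 6139 genes of at least 20 CPM in endothelial cells, were Bcl6b (0.978), N4bp3 (0.969), Ushbp1 (0.969), Rtp3 (0.968) and Robo4 (0.968). Those most like Plvap were Hmcn1 (0.975), Flrt2 (0.965) and Pkhd1l1 (0.963). The 15 classes share the 4 libraries, so these values are a description.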

How the data were processed

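Cells were captured with droplet 3′ chemistry and the authors deposited UMI counts per gene and barcode, made with Cell Ranger 3.1.0 on mm10 per the submitters' processing notes. The members, lists and tests were chosen with earlier results of these data known. Barcodes were kept from 500 UMIs and 250 detected genes upward if mitochondrial UMIs stayed within 20%, and simulated-doublet scores removed 430, 593, 343 and 64 of them (high_fibre 1, high_fibre 2, control_diet 1, control_diet 2). Cells were clustered with Leiden (leidenalg 0.10.2, 2000 variable genes, 30 components, 15 neighbours, resolution 1), giving 26 clusters named from marker lists. Among the members, Cdh5 was in the endothelial list and Plvap in the endocardial one. Of the genes of the cell rules, Pecam1, Egfl7 and Tie1 were in the endothelial list, Npr3 in the endocardial one and Prox1 and Mmrn1 in the lymphatic one. Clusters of 1390, 1384, 606 and 594 cells stayed unnamed and enter no named cell type. Counts were summed per library and cell set and tested over libraries with edgeR 4.0.16 (quasi-likelihood, robust, TMM, filterByExpr with a minimum count of 10, Benjamini-Hochberg over all genes tested), with DESeq2 1.42.0 as an alternative in R 4.3.3. Subset contrasts had the library as a block. SEs are the log2 fold divided by the root of F. The fit was tested on simulated data. Intervals from counting and limits for a count of 0 are exact, at 95% confidence and 3 counts, and cover counting error only. Members were the 10 genes named in the text, and of each list the called genes, up to 6 by absolute log2 fold, were named in each contrast. Alternatives left out each library, changed the filter, scaling and cell rules, thinned cells to 2000 UMIs and split cells by sex-linked UMIs. Alternatives chosen after the data were seen dropped shared barcodes, used library totals, took clusters as subsets and thinned cells for the diet comparison. Of the list genes, Cd99 was not used here.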

Additional observations from a re-analysis of the deposited data

Results flagged for a closer look

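Within single libraries, 4 of the subset differences of the members had 1 library apart from the other 3. The gap, divided by the range, passed Dixon's 95% critical value for 4 samples, which chance gives in about 1 in 20 groups. The subset differences cover the 10 members in each of the arterial, endocardial and lymphatic contrasts. Esam in arterial minus capillary cells had a gap of 0.907, with a log2 difference of −0.01 in high_fibre 2 and 0.17 to 0.18 elsewhere. Cgnl1 in the same contrast had a gap of 0.853, with −0.71 in control_diet 1 and −0.20 to −0.11 elsewhere. Tjp1 in endocardial minus capillary cells had a gap of 0.928, with −1.75 in control_diet 2 and −1.13 to −1.08 elsewhere. Esam in lymphatic minus capillary cells had a gap of 0.845, with −4.40 in control_diet 2, which had 4 lymphatic cells, and −3.56 to −3.40 elsewhere.

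The diet fold of Cldn5 was in opposite directions in endothelial cells and in macrophages, with a difference of 1.21 (log2). That difference was not tested. Macrophages held 1.59 and 1.81 CPM in high_fibre and 2.76 and 2.23 CPM in control_diet, near the level of free RNA.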

How the results depend on the processing

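Among the members' results, 522 kept direction and side of the threshold, 24 reversed, 13 gained and 15 lost a call. Genes called by diet in endothelial cells (2) were 11 with DESeq2, 145 with no filter, 44 with a replicate block, 0 with at least 2 and 1 with at least 8 UMIs of the rule's genes, 5 in endothelial clusters, 0 with doublets kept, 0 in Xist and 7 in Y-linked cells, 9 after thinning, 1 with library totals, and 2 to 39 leaving out 1 library. Arterial cells (1) gave 0 with DESeq2, 45 with no filter, 49 with the replicate block, 0 without shared barcodes and 0 to 42 leaving out 1. Capillary cells (3) gave 9, 75 and 33 under DESeq2, no filter and the replicate block, and 8 to 92 leaving out 1. Fibroblasts (3) gave 40, 267 and 17, and 0 to 136. Macrophages (0) gave 24 with no filter, 35 with the block and 0 to 45. Pericytes (13) gave 0 with DESeq2, 0 with the block, 3 without shared barcodes and 6 to 35. The difference of diet folds (4) gave 7 to 33 leaving out 1. Arterial minus capillary (2518) gave 1598 with DESeq2 and 1408 after thinning. Endocardial minus capillary (3254) gave 5269 with cells of several subsets kept, 1473 after thinning and 5565 by clusters. Lymphatic minus capillary (1545) gave 3347, 793 and 3062, and 1013 to 1346 leaving out 1. The cause was not tested. Of 20 levels, 10 moved beyond 1 SD as means of per-cell values.

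By diet in endothelial cells, these log2 folds turned sign: Esam −0.0024 at 2 UMIs, −0.037 with doublets, −0.020 in Xist cells and −0.043 to 0.19 leaving out 1 library. Jam2 was −0.019, −0.056 and −0.034 (2 UMIs, doublets, no shared barcodes) and −0.037 to 0.14. Cdh5 was 0.11 in Y-linked cells and −0.081 to 0.049. Jam3 was −0.0016 with doublets and −0.064 in Xist cells. Plvap was 0.10 and Cgnl1 0.013 in Xist cells, and Tjp1 was 0.066 in Y-linked and 0.030 in thinned cells. In arterial minus capillary cells Cdh5 was −0.014 with no filter, −0.0088 thinned and −0.00043 by clusters, Esam −0.015 by clusters and Cgnl1 0.039 with several subsets kept. Lymphatic Cldn5 was −0.27 with several subsets kept and −0.10 to 0.39 leaving out 1. With the replicate block Cldn5 by diet was 0.62 (edgeR adjusted p = 0.0336). Same-numbered libraries deviated together with a correlation of 0.059 over 12456 genes. The labels give no batch, and whether same-numbered libraries share one was not tested.

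With 2 libraries a group, an exact permutation test of 1 gene could not go below p = 0.333. The 106 endocardial and 40 lymphatic cells limit low genes.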
